A study of Arabidopsis thaliana with 24 samples.

Results

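The B-type cyclin genes of Arabidopsis thaliana studied here were CYCB1;1 to CYCB1;5 (the CYCB1 group), CYCB2;1 to CYCB2;4 (the CYCB2 group) and CYCB3;1. In the results below, the family and its members mean these 10 listed genes. They were taken by locus identifier, whatever their values, from a table of raw read counts with 33296 named genes, and CYCB1;1 (AT4G37490) was set against the other 9. RNA came from tips of the primary root of seedlings aged 6 days, wild type Columbia-0 (WT) or brl3-2. The brl3-2 line, SALK_006024C, carries a T-DNA insertion in BRL3, a brassinosteroid receptor gene of the BRI1 family. It is 1 insertion line, and a root tip holds dividing, elongating and older cells together. Before extraction the seedlings spent 2 h in liquid medium with either DMSO alone (mock) or zeocin, a bleomycin-type antibiotic that breaks DNA. The labels give 10 µM zeocin in one place and 2 µM in another, so no dose is attached here. Each of the 4 groups had 3 libraries, which the labels call biological replicates.

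B-type cyclins are regulatory partners of cyclin-dependent kinases. Most are transcribed in late G2 and mitosis, under MYB3R factors that bind the mitosis-specific activator (MSA) element, and most are destroyed during mitosis by the anaphase-promoting complex, APC/C. In roots their transcripts mark the dividing cells of the meristem. CYCB1;1 is also known as a gene that is switched on by DNA breaks through the transcription factor SOG1, and its product is known to act with CDKB1 kinases in repair by homologous recombination. Its promoter is a widely used reporter for mitotic cells and for DNA damage.

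The stretches before the gene starts are shown first, because they hold the MSA core that is known from mitotic genes. The coordinates, the gene starts and the sequences come from RefSeq's TAIR10.1 assembly and annotation. Each run is 250 bases, reads from 5′ to 3′ on the strand of the gene and ends at the base before the annotated start. Capitals mark AACGG, the MSA core, or its complement CCGTT. In the third sequence they also mark the letters CTT and AAG of the spaced motif described below. The first gene is the member that responded to zeocin, and the second is its closest relative by protein. The next pair are close relatives in the CYCB2 group, of which CYCB2;2 had the lowest estimate under zeocin in both genotypes. The last is a CYCB2 gene that holds no match in its run of 250 bases.
CYCB1;1 (chr4:17624309-17624558, minus strand): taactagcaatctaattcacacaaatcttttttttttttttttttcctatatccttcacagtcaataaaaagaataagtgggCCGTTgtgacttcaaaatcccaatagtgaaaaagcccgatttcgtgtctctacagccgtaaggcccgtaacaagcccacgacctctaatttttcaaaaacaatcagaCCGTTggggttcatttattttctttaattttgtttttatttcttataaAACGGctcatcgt
CYCB1;3 (chr3:3627274-3627523, minus strand): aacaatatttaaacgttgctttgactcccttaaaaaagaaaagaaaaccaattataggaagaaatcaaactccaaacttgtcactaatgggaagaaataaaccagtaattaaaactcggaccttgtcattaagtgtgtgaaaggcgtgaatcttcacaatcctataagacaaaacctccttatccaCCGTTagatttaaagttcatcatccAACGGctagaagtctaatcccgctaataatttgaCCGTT
CYCB2;1 (chr2:7663805-7664054, plus strand): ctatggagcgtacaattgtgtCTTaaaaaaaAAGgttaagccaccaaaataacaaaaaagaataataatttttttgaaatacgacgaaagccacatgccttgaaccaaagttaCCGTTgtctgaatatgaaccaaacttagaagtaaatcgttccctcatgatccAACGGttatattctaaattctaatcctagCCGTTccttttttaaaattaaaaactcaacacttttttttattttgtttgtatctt
CYCB2;2 (chr4:16901346-16901595, plus strand): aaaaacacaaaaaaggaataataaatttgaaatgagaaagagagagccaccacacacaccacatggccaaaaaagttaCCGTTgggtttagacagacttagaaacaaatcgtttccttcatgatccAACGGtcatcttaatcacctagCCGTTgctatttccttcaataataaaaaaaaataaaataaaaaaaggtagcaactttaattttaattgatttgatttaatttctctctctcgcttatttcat
CYCB2;4 (chr1:28630790-28631039, minus strand): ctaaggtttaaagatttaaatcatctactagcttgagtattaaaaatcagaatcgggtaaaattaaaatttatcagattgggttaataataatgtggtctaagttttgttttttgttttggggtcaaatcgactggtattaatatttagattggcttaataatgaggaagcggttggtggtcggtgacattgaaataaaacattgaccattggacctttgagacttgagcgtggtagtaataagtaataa

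The 3 CYCB2 genes with a match share more than the core. In the windows of 30 bases below, capitals again mark the core. Its first base sits 85, 124 and 66 bases before the start, and it is preceded by the same 6 bases in each.
CYCB2;1 (chr2:7663957-7663986, plus strand): tccctcatgatccAACGGttatattctaaa
CYCB2;2 (chr4:16901459-16901488, plus strand): tccttcatgatccAACGGtcatcttaatca
CYCB2;3 (chr1:7137878-7137907, minus strand): gtggcgttgatccAACGGctgagatgaact

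The longest run around the core that at least 3 members share was TGATCCAACGG, held by these 3 genes and by 30 of 27443 promoters (0.109%). Promoters were searched on both strands from 250 bases before to 50 bases after the start. The longest run shared by at least 5 members was AACGGCTAG, held by the same 3 genes, by CYCB1;3 and CYCB1;4, and by 54 promoters in all (0.197%). Both runs contain the MSA core, and both were found by searching these promoters, so their presence in the members is a description.

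Over the same 300-base window, AACGG was present on either strand in 8 of the 10 members and in 24.7% of all promoters. At least 3 matches were present in 6 members and in 1.06% of promoters. Of the other 4, CYCB1;4 and CYCB3;1 held matches in this window only after the start, and CYCB1;5 and CYCB2;4 held none in it. In the 1000 bases before the start AACGG was present in 8 members and in 55.9% of promoters. CYCB2;4 held 3 matches there and CYCB3;1 held 1. A spaced motif reported for SOG1, CTT and AAG with 7 bases of any kind between them, was searched on both strands in the 300-base window. It overlaps no MSA core in the members. Among them CYCB2;1 alone held it, against 11.8% of promoters. The promoter of CYCB1;1 had no match to it in the 300-base window or in the 1000 bases before the start. A match here is a match of letters only, and binding was not measured.

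**Figure D1:**
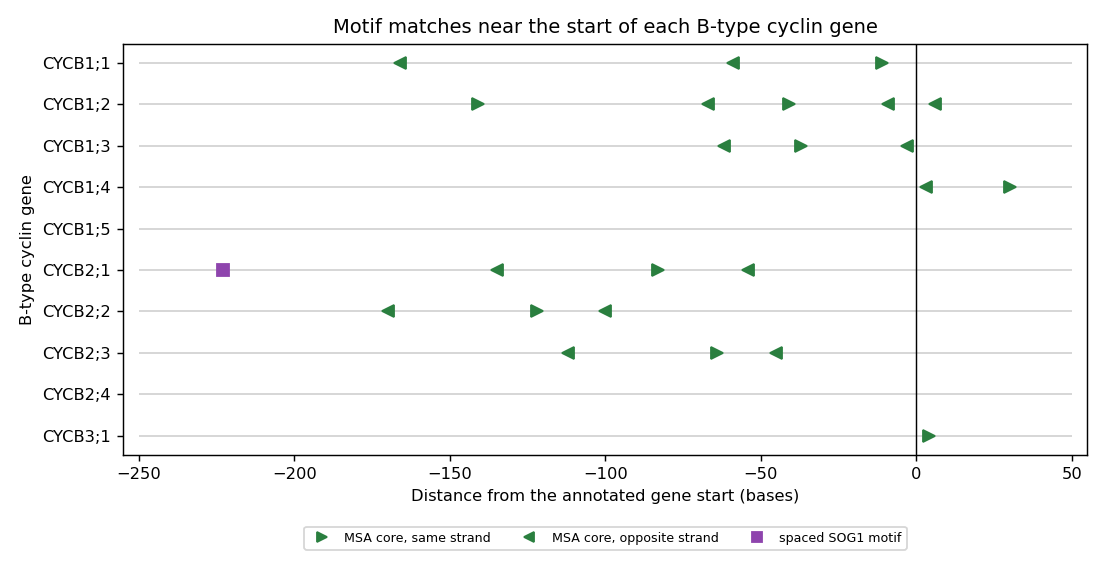
Matches in the 10 promoters, by distance from the annotated gene start in bases (x axis), 1 gene per line. Green triangles are the MSA core, pointing right on the strand of the gene and left on the opposite strand, and the purple square is the spaced SOG1 motif. In 6 genes at least 3 green triangles lie before the start, and 2 genes carry no mark.

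The genes and products differ in length and likeness. CYCB1;1 lies on chr4:17621886-17624308 on the minus strand, has 8 exons and encodes 428 residues. Its predicted protein shared 59.9% of aligned residues with CYCB1;3 and 56.4% with CYCB1;2. The closest pairs of the family were CYCB1;2 with CYCB1;5 at 81.4%, the first 2 CYCB2 genes at 77.3%, and the last 2 at 76.7%. The first of these pairs was the only one with coding stretches of 50 identical bases. Reads could therefore be shared between its genes, which leaves the levels of both CYCB1;2 and CYCB1;5 less certain. The annotation also marks the 5′ end of CYCB1;5 as partial, and 6.43% of its exon bases lie under AT1G06757 on the opposite strand. No source used here states whether the counting used strand, so the values of this gene are uncertain. No other member has exon bases that overlap another gene.

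In the series as a whole, 10 libraries held 32668516 to 38276389 counts, and WT mock replicate 3 and WT zeocin replicate 3 held 70212858 and 73481046. Those 2 libraries were lowest on the second principal component, at -41.8 and -24.1, with brl3-2 mock replicate 3 next at -20.6, and WT mock replicate 3 is named below where it decides a call. Levels are given as CPM, the read count scaled to the library's normalized total. BRL3 was read at 9.55 to 12.9 CPM in WT mock, at 21.5 to 31.7 CPM in WT zeocin and at 0.698 to 1.26 CPM in brl3-2. The 6 root meristem markers summed to 69.4 to 80.2 CPM in mock and to 63.4 to 70.0 CPM under zeocin. The 7 shoot photosynthesis markers, of which RBCS1B was at 0 in 11 libraries, summed to 39.4 to 81.7 CPM in those libraries and to 268 CPM in brl3-2 mock replicate 2. The 4 root hair markers summed to 94.96 to 204 CPM in mock and 111 to 152 CPM under zeocin in WT, and to 192 to 206 CPM in mock and 108 to 188 CPM under zeocin in brl3-2, where the groups did not overlap. All 10 cyclin genes passed the filter on low counts, with 31 or more reads in every library, among 19437 genes tested.

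Zeocin raised CYCB1;1 in both genotypes, and no other B-type cyclin was called higher. In WT mock the gene stood at 7.77, 6.47 and 6.50 CPM in replicates 1 to 3, and under zeocin at 89.7, 89.1 and 68.4 CPM. In brl3-2 it stood at 7.09, 7.21 and 6.90 CPM in mock and at 101, 104 and 79.1 CPM under zeocin. Every zeocin library lay far above every mock library of either genotype, and the lowest zeocin library was replicate 3 in both genotypes. The counts behind these levels were 222 to 431 in mock and 2926 to 4752 under zeocin.

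The group means were 6.91 ± 0.745 CPM in WT mock and 82.4 ± 12.1 CPM in WT zeocin (SD, n = 3). In brl3-2 they were 7.07 ± 0.156 CPM in mock and 94.6 ± 13.5 CPM under zeocin. The log2 fold change was 3.58 ± 0.14 in WT (SE, 95% interval 3.27 to 3.88, edgeR adjusted p = 1.07e-08). In brl3-2 it was 3.74 ± 0.14 (95% interval 3.43 to 4.05, edgeR adjusted p = 7.75e-09). By size of rise the gene was number 104 in WT and 105 in brl3-2 of all genes tested. A called gene is one with an edgeR adjusted p under 0.05 over all genes tested, and 4.07% of them were called higher in WT and 4.32% in brl3-2.

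The other 9 did not share this rise. In WT, 0 of the 9 were called by edgeR, against 4.98% of all genes in either direction, and 2 of them, CYCB2;2 and CYCB2;3, had an unadjusted p under 0.05. Their median log2 difference was -0.05, with 2 positive and 7 negative, beside a median of -0.00727 over all genes. In brl3-2, 0 of the 9 were called, against 5.38% of all genes, and the same 2 had an unadjusted p under 0.05. The median there was -0.17, again with 2 positive and 7 negative, beside -0.00336 over all genes. DESeq2 also called 0 of the 9 in each genotype. The highest upper end of the 9 intervals was 0.53 in WT and 0.42 in brl3-2, both far under the lower ends of 3.27 and 3.43 for the gene that rose.

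**Figure D2:**
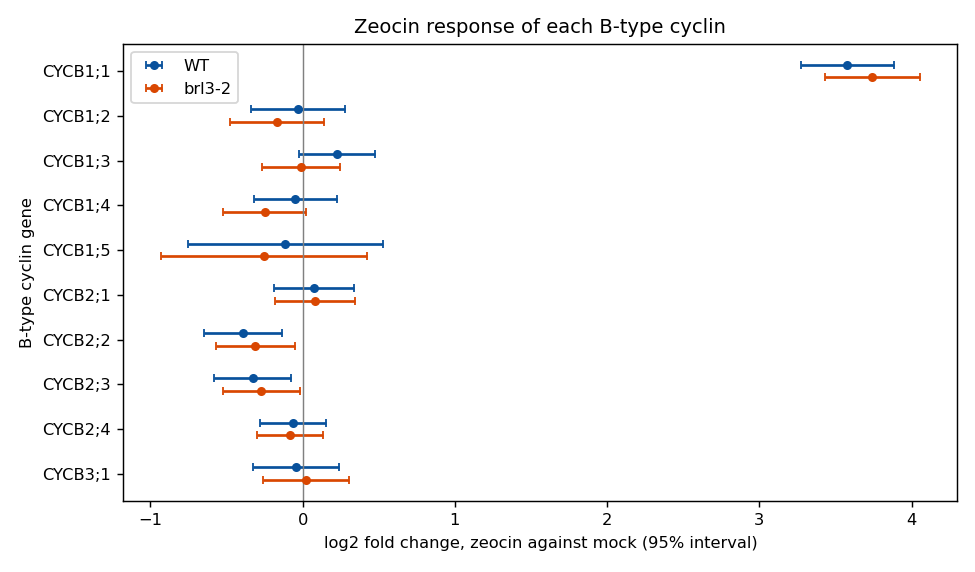
Log2 fold change of zeocin against mock for the 10 B-type cyclins (x axis, bars are 95% intervals from the edgeR fit), WT in blue and brl3-2 in orange. The top gene lies at 3.58 and 3.74, and the other 9 lie between -0.39 and 0.23.

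The relatives in the CYCB1 group were not called. CYCB1;2 (AT5G06150, minus strand of chr5:1859279-1861703), a mitotic cyclin known to act with CYCB1;1 in organizing the microtubules of dividing cells, stood at 9.72, 8.34 and 11.5 CPM in WT mock and at 8.00, 11.2 and 9.77 CPM in WT zeocin. In brl3-2 it stood at 10.6, 11.8 and 12.3 CPM in mock and at 9.59, 10.2 and 11.1 CPM under zeocin. Its mock and zeocin groups overlapped in both genotypes. Its log2 difference was -0.03 ± 0.14 in WT and -0.17 ± 0.14 in brl3-2 (edgeR adjusted p = 0.976 and 0.709).

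CYCB1;3 (AT3G11520, minus strand of chr3:3625286-3627273) is the closest relative of the induced gene by protein. It stood at 4.59, 4.10 and 4.79 CPM in WT mock and at 5.85, 4.77 and 5.20 CPM in WT zeocin. The groups overlapped by 1 library. Its estimate of 0.23 ± 0.11 was the highest of the 9 in WT (95% interval -0.02 to 0.48, edgeR adjusted p = 0.441). In brl3-2 it stood at 4.68, 5.24 and 5.07 CPM in mock and at 4.70, 5.21 and 4.96 CPM under zeocin, with an estimate of -0.01 (95% interval -0.27 to 0.24). The zeocin range there lay within the mock range.

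CYCB1;4 (AT2G26760, plus strand of chr2:11401118-11403433) stood at 4.49 to 6.59 CPM over the 12 libraries. Its log2 difference was -0.05 ± 0.12 in WT and -0.25 ± 0.12 in brl3-2 (edgeR adjusted p = 0.95 and 0.392). CYCB1;5 (AT1G34460, plus strand of chr1:12595110-12602379) was the lowest member, at 0.947 to 2.31 CPM. Its intervals were the widest, -0.75 to 0.53 in WT and -0.93 to 0.42 in brl3-2. These intervals leave out a rise of the size seen in the induced gene, and changes that lie within them could not be told from 0.

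Within the CYCB2 group, CYCB2;2 and CYCB2;3 had lower estimates under zeocin in both genotypes, short of the call in each. CYCB2;2 (AT4G35620, plus strand of chr4:16901596-16904001) stood at 5.91, 5.45 and 4.87 CPM in WT mock and at 3.86, 4.44 and 4.05 CPM in WT zeocin. In brl3-2 it stood at 5.32, 5.98 and 5.38 CPM in mock and at 4.67, 4.09 and 4.67 CPM under zeocin. In both genotypes each zeocin library was below each mock library. The log2 difference was -0.39 ± 0.12 in WT (95% interval -0.65 to -0.13, edgeR adjusted p = 0.0991) and -0.31 ± 0.12 in brl3-2 (95% interval -0.57 to -0.05, edgeR adjusted p = 0.204).

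CYCB2;3 (AT1G20610, minus strand of chr1:7134659-7137828) stood at 16.4, 16.9 and 13.2 CPM in WT mock and at 11.9, 13.3 and 11.8 CPM in WT zeocin. The WT groups overlapped by 1 library, since WT mock replicate 3 lay just under the highest zeocin library. In brl3-2 it stood at 15.2, 17.6 and 13.96 CPM in mock and at 12.3, 12.7 and 13.8 CPM under zeocin, with no overlap. The log2 difference was -0.33 ± 0.12 in WT (edgeR adjusted p = 0.186) and -0.27 ± 0.12 in brl3-2 (edgeR adjusted p = 0.286). Over all genes tested, every zeocin library lay below every mock library in 6.35% of genes in WT and in 10.6% in brl3-2, and 0.9% and 1.05% were called lower.

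The other CYCB2 members and CYCB3;1 were not called in either genotype, with estimates from -0.08 to 0.08. Whether their responses differed from those of the 2 genes above was not tested. CYCB2;1 (AT2G17620, plus strand of chr2:7664055-7666522), which shares the 11-letter run with both genes above, had 0.08 ± 0.12 in each genotype (95% intervals -0.19 to 0.34 and -0.18 to 0.35). Its levels were 3.86 to 5.13 CPM in WT mock and 4.61 to 5.004 CPM in WT zeocin, and 5.01 to 5.41 and 5.28 to 5.84 CPM in brl3-2. CYCB2;4 (AT1G76310, minus strand of chr1:28627694-28630789), with no MSA core in its window, had -0.06 ± 0.10 in WT and -0.08 ± 0.10 in brl3-2. Its 95% intervals were -0.28 to 0.15 in WT and -0.30 to 0.14 in brl3-2. Its levels were 7.82 to 9.69 CPM over all libraries. CYCB3;1 (AT1G16330, minus strand of chr1:5582387-5587461), a B-type cyclin with a known part in meiosis, had -0.04 ± 0.13 in WT and 0.02 ± 0.13 in brl3-2. Its 95% intervals were -0.32 to 0.24 in WT and -0.26 to 0.30 in brl3-2, and its levels were 7.76 to 10.8 CPM. All 3 had groups that overlapped in both genotypes.

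**Figure D3:**
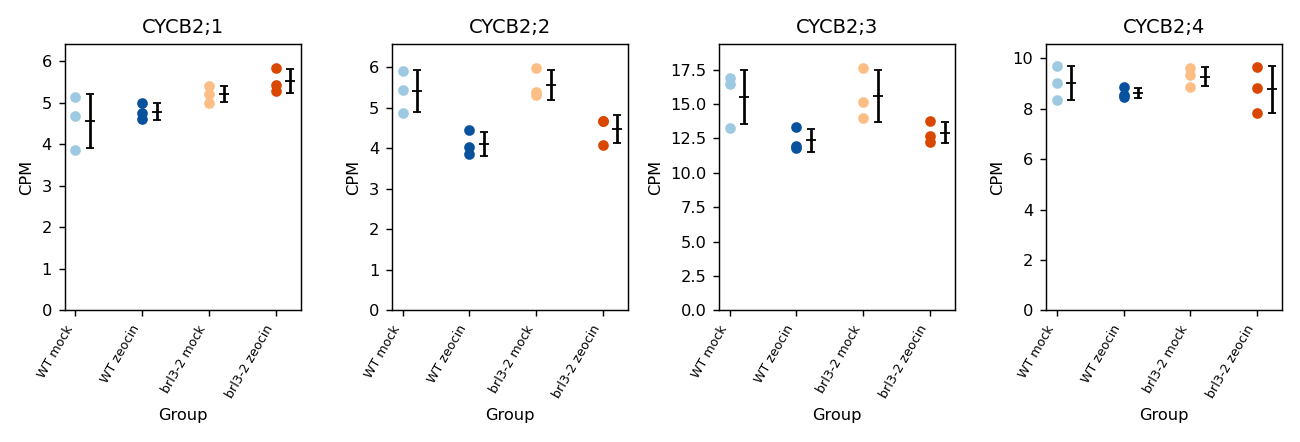
CPM of the 4 CYCB2 genes in each library (points) with the mean and SD of 3 libraries (bars), by group. Both middle genes have lower means under zeocin in both genotypes, 4.12 against 5.41 CPM for CYCB2;2 in WT, and the first and last have overlapping groups in each genotype.

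When zeocin was compared with mock as the average of both genotypes, a contrast added after the data were seen, 2 of the 9 passed the call, and both were lower. CYCB2;2 fell by 0.35 on the log2 scale (SE 0.08, 95% interval -0.53 to -0.17, edgeR adjusted p = 0.0181). CYCB2;3 fell by 0.30 on the log2 scale (SE 0.08, 95% interval -0.48 to -0.12, edgeR adjusted p = 0.038). In this contrast 10.2% of all genes were called, 3.04% lower and 7.2% higher, and the induced gene rose by 3.66 ± 0.10. The other 7 members had edgeR adjusted p from 0.378 to 0.968. CYCB2;1 had 0.08 with a 95% interval of -0.11 to 0.26, and whether its response differed from those of its 2 relatives was not tested.

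These 2 decreases were small and did not hold in every setting. AT1G20610 lost the call without WT mock replicate 1 or 2, WT zeocin replicate 1 or 3, brl3-2 mock replicate 1 or 2, or brl3-2 zeocin replicate 1 or 2, with edgeR adjusted p up to 0.108. AT4G35620 lost it without WT zeocin replicate 1, brl3-2 mock replicate 2 or brl3-2 zeocin replicate 2, with edgeR adjusted p up to 0.06. In WT alone both passed the call without WT mock replicate 3, AT4G35620 at -0.46 and AT1G20610 at -0.43 (edgeR adjusted p = 0.0454 and 0.0325). Without that library edgeR called 340 of 19597 genes lower in WT, against 175 of 19437 with all libraries. The summed meristem markers were also lower under zeocin. Most of that sum came from SCR, at 36.4 to 47.2 CPM over the libraries, and SHR, at 16.5 to 22.4 CPM. Among the 6 markers WOX5, a gene of the stem cell niche, fell in the averaged contrast by 0.96 on the log2 scale and SHR, a gene of radial patterning, fell by 0.24 (edgeR adjusted p = 0.0235 and 0.0284). WOX5 was near the floor, at 0.26 to 0.93 CPM. In brl3-2 alone WOX5 fell by 1.36 (edgeR adjusted p = 0.0482), a call that limma-voom did not make (limma-voom adjusted p = 0.0845). The 4 root hair markers, of another cell type, were also negative in the averaged contrast, with a median of -0.22, and in brl3-2, with a median of -0.39, and 0 of them were called by edgeR, DESeq2 or limma-voom (0 and 1 at an unadjusted edgeR p under 0.05). The part of either marker list in the CYCB2 values was not tested. In bulk tissue, fewer cells of a type and less RNA per cell cannot be told apart.

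No difference between brl3-2 and WT was called for any B-type cyclin. For CYCB1;1 brl3-2 against WT gave 0.04 ± 0.14 in mock (95% interval -0.27 to 0.34) and 0.20 ± 0.12 under zeocin (95% interval -0.07 to 0.47), each with edgeR adjusted p = 1. The difference between its zeocin responses was 0.16 ± 0.19 (95% interval -0.24 to 0.57, edgeR adjusted p = 1). Of the other 9, edgeR called 0 in mock, against 0.0257% of all genes, 0 under zeocin, against 0.0412%, and 0 for the difference of responses, against 0% of all genes (194 genes at an unadjusted p under 0.05). At an unadjusted p under 0.05 there were 1, 0 and 0 of the 9, and DESeq2 called 0 of them in each of these contrasts.

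The 9 differences between genotypes ranged from -0.26 to 0.32 in mock with a median of 0.04, and from -0.40 to 0.21 under zeocin with a median of 0.07. The 9 differences of response ranged from -0.24 to 0.08. The only unadjusted p under 0.05 was that of CYCB1;4, with 5.19, 4.62 and 5.11 CPM in WT mock and 5.44, 6.58 and 6.59 CPM in brl3-2 mock. Those groups did not overlap, as in 4.06% of all genes with brl3-2 higher, and the difference of 0.32 ± 0.12 had an edgeR adjusted p of 1. Under zeocin the groups of CYCB2;1 did not overlap either, with brl3-2 higher, as in 4.25% of all genes, and its difference of 0.21 ± 0.12 had an edgeR adjusted p of 1.

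To compare members with one another, CPM was divided by the length of the joined exons in kb. In WT mock CYCB2;3 was highest at 7.72 ± 0.990 CPM per kb, followed by CYCB1;2 at 5.39 ± 0.857, CYCB3;1 at 4.64 ± 0.423, CYCB1;1 at 4.24 ± 0.457 and CYCB2;4 at 3.88 ± 0.292 CPM per kb (SD, n = 3). The next 4 lay between 2.71 and 3.10 CPM per kb with ranges that overlapped from each to the next, and CYCB1;5 was last at 0.511. Among the first 5, the ranges of the first and second places did not overlap, and those of the later neighbours did. The ranges of the fifth and sixth places, and of the last 2, were apart. In brl3-2 mock the first 5 came in the same order, from 7.75 ± 0.929 to 3.99 ± 0.163 CPM per kb, and the last place was the same at 0.428.

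Under zeocin CYCB1;1 went from the fourth place to the first in both genotypes. It reached 50.5 ± 7.42 CPM per kb in WT and 58.1 ± 8.28 CPM per kb in brl3-2. The next member, CYCB2;3, stood at 6.14 ± 0.419 and 6.42 ± 0.388 CPM per kb. The ranges of the first and second places did not overlap in either genotype.

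**Figure D4:**
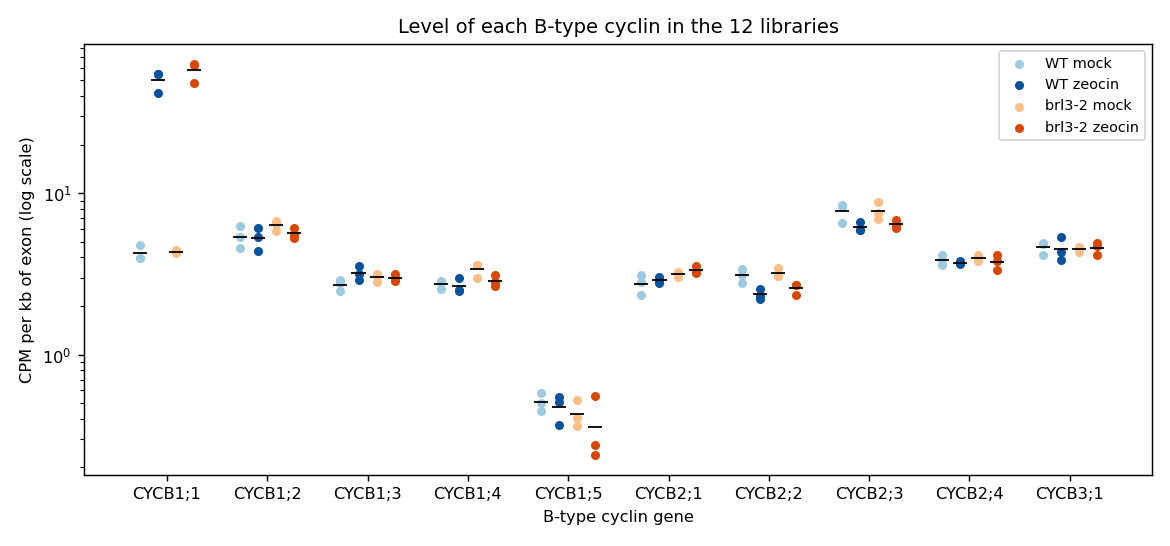
CPM per kb of exon for each B-type cyclin (log axis), 1 point per library and a black line at the mean of 3, in the 4 groups. The first gene under zeocin, at means of 50.5 and 58.1, stands above every other value, and the fifth gene is lowest in every group.

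The summed level of the family was higher under zeocin, by less than the difference in the induced gene alone, and the mean sum of the other 9 was lower. The sum of all 10 was 37.7 ± 1.96 CPM per kb in WT mock and 81.7 ± 8.63 in WT zeocin, and 40.1 ± 1.66 and 90.6 ± 6.99 in brl3-2. The sum of the other 9 was 33.4 ± 1.51 and 31.2 ± 2.05 CPM per kb in WT mock and zeocin, ranges that overlapped. In brl3-2 it was 35.8 ± 1.605 and 32.5 ± 1.37, and those ranges did not overlap. These sums of the 9 are given with no test.

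CYCB1;1 made up 12.0, 10.8 and 11.0% of the summed level in WT mock and 64.7, 62.0 and 58.3% in WT zeocin. In brl3-2 it made up 11.2, 10.5 and 10.7% in mock and 66.3, 66.5 and 58.8% under zeocin. In each genotype all 3 zeocin shares lay far above the mock shares. Without the division by length, its share of the family's reads was 9.05 to 10.2% in mock and 54.0 to 62.7% under zeocin.

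**Figure D5:**
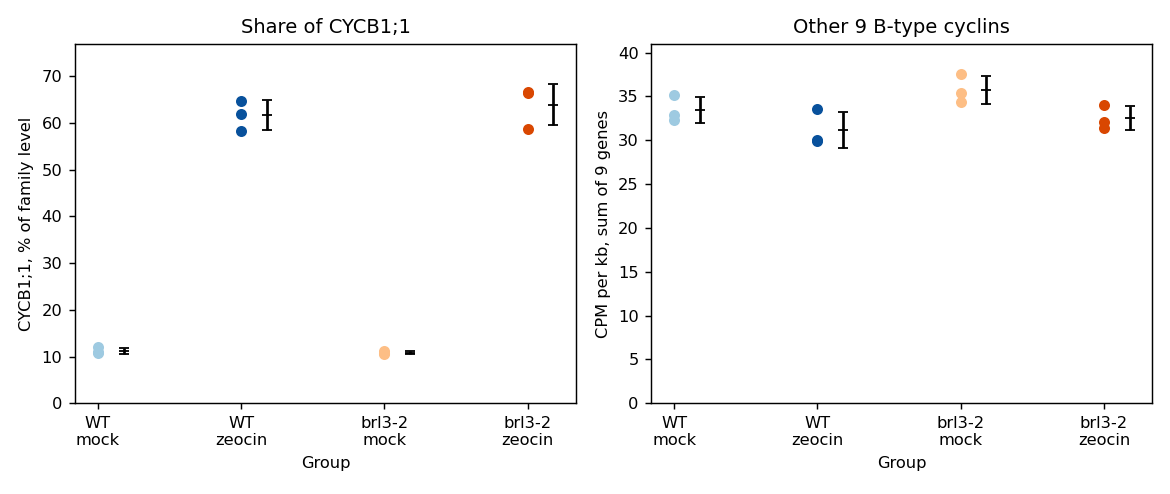
Left, the share of CYCB1;1 in the summed CPM per kb of the 10 B-type cyclins (%), and right, the summed CPM per kb of the other 9, by group (points are libraries, bars are mean and SD of 3). The share goes from 11.2 and 10.8% in mock to 61.7 and 63.9% under zeocin, while the sum of the other 9 stays between 29.96 and 37.5 CPM per kb.

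On the log2 CPM scale, the gene stood above the mean of the other 9 by 0.14 ± 0.09 in WT mock and 3.78 ± 0.20 in WT zeocin (SD, n = 3). In brl3-2 the distance was 0.10 ± 0.06 in mock and 3.97 ± 0.32 under zeocin. The shift in this distance was 3.64 in WT and 3.87 in brl3-2. It is given as a description, with no test.

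Among replicates the members moved with both signs relative to each other. Over the deviations of the 12 libraries from their group means, the 36 pairs among the other 9 had correlations from -0.606 to 0.764 with a median of 0.0295, and 20 were positive. Pairs among CYCB2;1, CYCB2;2, CYCB2;3 and CYCB3;1 all lay between 0.666 and 0.764, a set picked after the values were seen. The induced gene against each of the 9 gave -0.683 to 0.476 with a median of 0.131. These deviations hold counting error as well, since the 9 genes had 31 to 878 reads per library.

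Genes with a profile like that of CYCB1;1 over the 12 libraries were sought outside the family. By Pearson's r of log2 CPM, BRCA1 (AT4G21070), a repair gene of homologous recombination, had 0.9994, DDI1 (AT3G13235) had 0.9989, AT3G20490 had 0.9989 and RecQl3 (AT4G35740), a RecQ-type DNA helicase gene, had 0.9986. These values take in the contrast of 6 mock and 6 zeocin libraries. Within groups, over the deviations from group means, the same genes had 0.897, 0.839, 0.865 and 0.803. The genes closest to the mean deviation of the other 9 were AT3G19540 at 0.9549, AT5G10780 at 0.9366, AT2G21160 at 0.9358, AT3G09730 at 0.93 and AGP18 (AT4G37450), an arabinogalactan protein gene, at 0.929. Pairs of the 9 had a median of only 0.0295, so their mean is not a profile that all of them share. Its largest value, 0.122 in brl3-2 zeocin replicate 3, came with a deviation of 0.721 in CYCB1;5. Genes for both targets were picked by r from all genes tested outside the family. The points of each of these correlations share library and depth, and no p is given.

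The counts for the gene lists that follow stand beside 4.07% of all genes called higher and 0.9% lower in WT, 4.32% and 1.05% in brl3-2, and 7.2% and 3.04% in the averaged contrast. Among genes for cyclin-dependent kinases, their partners and kinases that act on them, 2 of 12 rose and 0 fell in each genotype. CDKA;1 and the CDKB1 and CDKB2 genes were not among those called higher. WEE1, the kinase that inhibits cyclin-dependent kinases, rose from 5.72 ± 0.221 to 14.3 ± 1.99 CPM in WT (log2 1.32 ± 0.11, edgeR adjusted p = 1.34e-05) and by 1.40 ± 0.11 in brl3-2 (edgeR adjusted p = 7.6e-06). CDKD;2, a kinase that activates cyclin-dependent kinases, rose by 0.80 ± 0.11 in WT and 0.75 ± 0.11 in brl3-2 (edgeR adjusted p = 0.00088 and 0.00135). The mitotic kinase gene CDKB2;1 was called lower in the averaged contrast and not in either genotype, as was CDKF;1. They fell by 0.21 and 0.15 on the log2 scale (edgeR adjusted p = 0.0351 and 0.0427).

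A-type cyclins, which act from S phase to mitosis, moved in part. In WT 2 of 9 tested rose, against 4.07% of all genes, CYCA1;1 by 1.15 ± 0.16 and CYCA1;2 by 0.67 ± 0.14 (edgeR adjusted p = 0.000885 and 0.0175). In brl3-2 the first rose by 1.098 ± 0.16 (edgeR adjusted p = 0.00117) and the second had 0.52 ± 0.15 (edgeR adjusted p = 0.0688), which DESeq2 called (DESeq2 adjusted p = 0.0272), and the difference of its responses between genotypes was not called. The median of the 9 was 0.07 in WT and 0.06 in brl3-2. The first went from 3.22 ± 0.399 to 7.21 ± 0.863 CPM in WT.

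Of the SIM and SMR kinase inhibitors, 4 of 6 tested rose and 0 fell in each genotype, against 4.07% and 4.32% of all genes called higher. SMR5, also on the list, stood at 0 CPM in every group and was not tested. A silent gene and one that the counting left out cannot be told apart here, so its response is not known. SMR6 was low, at means of 0.391 CPM in WT mock and 1.76 CPM in WT zeocin. SMR7 rose to 160 ± 9.05 CPM in WT and 184 ± 34.5 CPM in brl3-2 from below 1 CPM, SMR4 rose by 5.44 ± 0.14 and 5.83 ± 0.15, SMR6 by 2.16 ± 0.30 and 2.60 ± 0.31, and SIM by 0.97 ± 0.12 and 1.04 ± 0.12 (edgeR adjusted p from 9.17e-11 to 0.000819). The median log2 difference of the 6 was 1.56 in WT and 1.82 in brl3-2, beside medians near 0 over all genes.

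Among 16 genes of the APC/C, which marks B-type cyclins for destruction, and of its activators and inhibitors, 1 rose and 0 fell in each genotype, a share near the 4.07% and 4.32% of all genes called higher. CCS52A1, an activator, rose by 1.42 ± 0.12 in WT and by 1.34 ± 0.12 in brl3-2 (edgeR adjusted p = 9.23e-06 and 1.33e-05), and the medians of the 16 were 0.03 and 0.06. CCS52B, another activator, was called only in the averaged contrast, at 0.30 ± 0.07 (edgeR adjusted p = 0.0217).

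Among 8 transcription factor genes of mitotic transcription and of the damage response that holds it back, 2 rose and 0 fell in each genotype, against 4.07% and 4.32% of all genes called higher. NAC044 rose by 3.45 ± 0.49 in WT and 3.82 ± 0.50 in brl3-2 (edgeR adjusted p = 0.000901 and 0.000442). NAC085 rose from 0 to 0.0826 CPM in the WT mock libraries to 0.504 to 1.36 CPM under zeocin (edgeR adjusted p = 0.00544 in WT and 0.00938 in brl3-2). In the averaged contrast MYB3R4 and MYB3R1, which bind the MSA element, rose by 0.20 ± 0.05 and 0.16 ± 0.05 (edgeR adjusted p = 0.0279 and 0.049), and limma-voom did not call MYB3R1 (limma-voom adjusted p = 0.0503).

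Of 14 spindle, kinetochore and cytokinesis genes, 0 were called by edgeR or DESeq2 in either genotype, against 4.98% and 5.38% of all genes called by edgeR in either direction, with medians of 0.01 and 0.00. At an unadjusted p under 0.05 edgeR had 2 in WT and 3 in brl3-2, and 1, the kinesin gene TES, rose in the averaged contrast, by 0.20 ± 0.06 (edgeR adjusted p = 0.0485), a share near the 7.2% of all genes called higher and a call that limma-voom did not make (limma-voom adjusted p = 0.0505). Between genotypes, 0 of the 81 tested genes of these lists and the 3 marker lists were called in mock, under zeocin or for the difference of responses by edgeR or DESeq2. Over all genes edgeR called 0.0257%, 0.0412% and 0% in these contrasts. At an unadjusted p under 0.05 edgeR had 6, 2 and 1 of the 81, beside 3.97%, 2.12% and 0.998% of all genes.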

How the data were processed

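The data were raw read counts per gene in 12 libraries. The authors deposited these counts in 1 table. The submitters' processing notes name TAIR10 as the build, HISAT2 2.1 and featureCounts 1.6.2, and also Trimmomatic 0.38, FastQC 0.11.2 and edgeR 3.34.1. Per the labels' protocols the library kit was stranded and each library was sequenced in 2 runs. No source used here gives the settings of the counting or says whether both runs were added.

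Of 33297 rows, 1 without a gene name (at most 0.00393% of a library) was left out. Counts were filtered with filterByExpr (minimum count 10, minimum total 15), scaled by TMM and tested with edgeR's quasi-likelihood test (edgeR 4.0.16, R 4.3.3). All 12 libraries entered 1 fit with a coefficient per group, and p-values were Benjamini-Hochberg adjusted over 19437 genes, two-sided, with a threshold of 0.05. The SE is the log2 fold change divided by the square root of F. The fit was tested on simulated data. CPM per kb uses the joined exons of all transcripts in RefSeq's TAIR10.1 annotation, and protein identity compares translated coding sequences. Likeness uses log2 CPM with a prior count of 2. Libraries within a group differed from each other beyond sampling noise.

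The 10 members and the gene lists were chosen with earlier results of these data known. The rule for named genes was all 10 members, at most 4 called genes per list and comparison, and the 5 genes most like the induced member and most like the other 9. The gene ranked first for the induced member is not reported here. Alternatives were RLE factors, library totals alone, other filters, DESeq2 1.42.0, limma-voom (limma 3.58.1), a fit of the compared groups alone, the replicate number as a block, each library left out, and both deeper WT libraries left out. The averaged contrast, the 1000-base window and the removal of both zeocin libraries numbered 3 were added after seeing the data.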

Additional observations from a re-analysis of the deposited data

How the results depend on the processing

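Members other than CYCB1;1 are given here by locus. That gene kept its rise and its call in each genotype under all 15 alternatives, with log2 fold changes of 3.51 to 3.70 in WT and 3.67 to 3.86 in brl3-2, the ranges found with a library left out. Its shift relative to the rest of the family ranged from 3.55 to 3.75 in WT and from 3.78 to 4.06 in brl3-2. Its difference between genotypes in mock, near 0, ranged from -0.0087 to 0.125 with a library left out and was -0.0152 without both deeper WT libraries. The count of the other 9 called in WT ranged from 0 to 2 with a library left out (2 without WT mock replicate 3) and was 0 in brl3-2 under every alternative run. Without WT mock replicate 3, genes called lower in WT went from 175 of 19437 to 340 of 19597.

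In the averaged contrast that count of 2 ranged from 0 to 2 with a library left out. It was 1 with library totals alone, 1 with limma-voom and 0 without both zeocin libraries numbered 3, where AT4G35620 and AT1G20610 stood at -0.36 and -0.31 (edgeR adjusted p = 0.0575 and 0.0857). The cause was not tested. Members with estimates near 0 changed sign. In WT without both deeper libraries, AT5G06150 stood at 0.0835, AT2G26760 at 0.0228 and AT2G17620 at -0.0109. With a library left out, the ranges in WT were -0.146 to 0.0969 for AT5G06150, -0.0369 to 0.169 for AT2G17620, -0.235 to 0.0359 for AT1G34460, -0.137 to 0.0045 for AT2G26760 and -0.187 to 0.0620 for AT1G16330. In brl3-2 they were -0.0558 to 0.0341 for AT3G11520 and -0.0366 to 0.0891 for AT1G16330, which stood at -0.0133 with library totals alone. In the averaged contrast AT1G16330 ranged from -0.0833 to 0.0412, and stood at 0.00094 without both deeper WT libraries and 0.0127 without both zeocin libraries numbered 3.

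The replicate numbers were not treated as pairs: 9 of 18 same-numbered pairs of libraries had deviations correlated over 0.1, from -0.316 to 0.589, and 1 of 12 libraries matched its own number best in every other group. With the replicate number as a block the rise stood at 3.56 in WT and 3.73 in brl3-2, and no call of a member changed. All 40 group means of CPM moved by less than 1 SD with library totals alone. The spaced motif was found in 2 members over 1000 bases, against 33.3% of promoters, and AACGG in 6 over the 250 bases before the start, against 20.6%. The 3 libraries per group limit the smaller estimates: the median SE of the other 9 was 0.12 in each genotype.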
